A study of Rattus norvegicus with 3 samples.

Results

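Mature CD4-2 thymocytes are 127 cells of a droplet single-cell RNA library made from thymocytes of Lewis rats, which are inbred, at 8 weeks of age. They were chosen by the authors' label alone, and make up 127 of 8546 annotated cells of that library, or of 21772 annotated cells in both libraries of the study. The neighbouring label, Mature CD4-1, holds 121 cells and serves as the main comparison, with Immature CD4-2 (103 cells) and Mature CD8-1 (91 cells) beside it. The study also holds a library of stromal cells depleted of CD45, the surface protein of blood-derived cells, and 1 section of thymus, 10 µm thick, measured by Stereo-seq, a chip that captures RNA with its position. No group carries a treatment, allele or transgene. The labels do not say how many rats gave cells to each library. Each group has 1 sample, so the comparisons lack a check by replicates and carry no tests or p-values. All 127 cells carry a projected label, and per the series' design text the references used for annotation joined these libraries with published mouse data.

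Thymocytes pass through ordered stages. Cells without coreceptors (double-negative, DN) become double-positive (DP) for CD4 and CD8 in the cortex, where the recombinase genes Rag1 and Rag2 rearrange the T cell receptor. After positive selection they keep CD4 or CD8, move to the medulla, and there mature in steps. In the last steps they gain Klf2 and S1pr1, the genes of exit to the blood. Genes induced by interferon are also known to be switched on in late single-positive thymocytes of mice.

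The 127 cells had a median of 9553 UMIs (unique molecular identifiers, each counting 1 captured RNA molecule), from 3696 to 23843, and a median of 2864 genes. Mature CD4-1 cells had a median of 7964 UMIs and 2516 genes. Summed over cells, the labels held 1254042 and 1016042 UMIs. Of the 127 cells, 126 lay in the authors' cluster named Mature SP, of which they formed 16.3%. The stromal and thymocyte libraries shared 38 barcodes, and 2 of the 127 cells carried such a barcode. Levels below are counts per 1000000 UMIs of a label (CPM), and every interval is a 95% interval for counting error only. A gene is counted where both labels together hold at least 100 UMIs, and a 2-fold difference is a CPM ratio past 2 in either direction.

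The proposed markers Cxcr4, Cd4 and Il7r were all present, and none of them set the label apart. Cxcr4, a chemokine receptor, was at 152 CPM, the highest of 21 labels with at least 20 cells, but Treg stood at 145 CPM and Mature CD4-1 at 132 CPM. Its ratio to Mature CD4-1 was 1.15 (0.916 to 1.44), an interval that includes equality. Il7r, the receptor chain for interleukin 7, was at 274 CPM against 327 CPM, and ranked 5 of 21. Cd4, the coreceptor of the lineage, was at 314 CPM against 219 CPM in Mature CD4-1 and 1350 CPM in DP cells. Over all labels, 55 of 3356 genes were highest in Mature CD4-2, and the largest lead over the next label was 1.24-fold. That gene was Topors, at 63.0 CPM against 50.8 CPM in Mature cycling T (ratio 1.24, 0.844 to 1.84). Foxn3, a forkhead transcription factor, was at 970.5 CPM against 795 CPM in DP cells, a ratio of 1.22 (1.15 to 1.29). Mx1, induced by interferon, led intCD4 by 1.20 (0.821 to 1.79), and Lrrc8c, Mrtfa, Tnfrsf26, Pacs1, Fgd3, Nup153 and Ablim1 led by 1.14 to 1.18. These 10 leads are a description of a ranking, and for 9 of the 10 the interval includes equality.

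**Figure D1:**
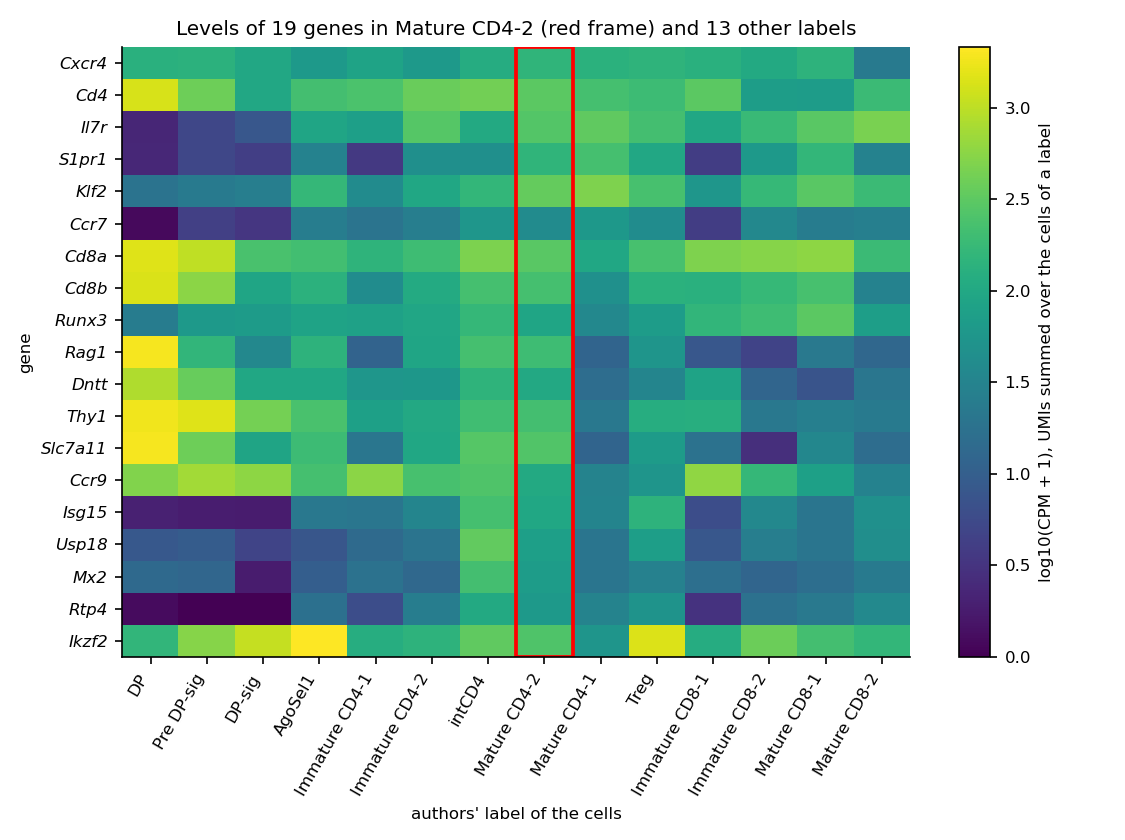
Levels of 19 genes (rows) in Mature CD4-2 (red frame) and 13 other labels (columns), as log10(CPM + 1) of the UMIs summed over the cells of each label. Mature CD4-2 shares high Klf2 and S1pr1 with Mature CD4-1 and Mature CD8-1, and shares Rag1, Dntt, Thy1 and Slc7a11 above the Mature CD4-1 level with DP cells and intCD4. Other labels also exceed Mature CD4-1: Rag1, Rag2, Ptcra and Dntt summed to 170 CPM in Immature CD4-2 and 107 CPM in Treg. The sum was 29.5 CPM in Mature CD4-1 and 342 CPM in Mature CD4-2.

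The exit genes Klf2 and S1pr1 lay between their levels in Immature CD4-2 and Mature CD4-1. Klf2, the factor that switches on exit genes, was at 95.6 CPM in Immature CD4-2, 348 CPM in Mature CD4-2 and 481 CPM in Mature CD4-1. S1pr1, the sphingosine 1-phosphate receptor that draws cells into blood, was at 44.1, 152 and 219 CPM in the same order. For both genes the intervals of the CPM of Mature CD4-2 and Mature CD4-1 did not overlap. The ratios to Mature CD4-1 were 0.694 (0.569 to 0.846) for S1pr1 and 0.724 (0.635 to 0.825) for Klf2. Ccr7, the receptor that leads cells to the medulla, was at 39.1 CPM against 59.1 CPM. S1pr1 and Klf2 thus lay nearer to the Mature CD4-1 level than to the Immature CD4-2 level. In cells without UMIs of Cd8 or of the DP genes added up further on, the gap to Mature CD4-1 was not detectable: the ratios were 0.970 (0.820 to 1.15) for Klf2 and 0.888 (0.683 to 1.15) for S1pr1.

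Against Immature CD4-2, 78 of 3393 counted genes (2.30%) were at least 2-fold higher and 35 (1.03%) at least 2-fold lower. Of 19 counted genes of the late maturation and exit list, 7 were among the higher, with Klf2 (3.64-fold), Lgals1 (3.49-fold), S1pr1 (3.45-fold), Foxo1 (2.69-fold), Vim (2.25-fold) and Plac8 (2.13-fold). Their list had a median log2 ratio of 0.85, where all counted genes had -0.06. Gimap4 and Gimap9, guanosine triphosphatases of the GIMAP family, were 2.71-fold and 2.49-fold higher. Cxcr4 was 2.47-fold higher, at 152 CPM against 61.3 CPM. The immediate genes of receptor signalling went the other way: of 6 counted, 4 were lower, namely Nr4a1 (50.2 against 217 CPM, 4.32-fold), Nab2 (3.11-fold), Nr4a3 (2.81-fold) and Egr1 (2.07-fold). Itm2a was 3.41-fold lower, at 200.2 CPM against 683 CPM, and Ccr9, the gut-homing receptor that thymocytes carry early, 2.18-fold lower.

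Against Mature CD8-1, 104 of 3330 counted genes (3.12%) were at least 2-fold higher and 8 (0.240%) at least 2-fold lower. The higher genes included those of the CD4 choice. Cd40lg, the ligand by which helper T cells activate B cells, was at 103 CPM against 8.44 CPM, 12.2-fold higher (6.01 to 28.8). Cd4 was 4.65-fold and Gata3, a factor of the CD4 lineage, 3.06-fold higher. Runx3, the factor of the CD8 lineage, was the gene furthest below, at 89.3 CPM against 307 CPM (3.44-fold lower). Cd8a was at 303 CPM against 585 CPM, and Cd8b at 220.1 CPM against 232 CPM. The label was on the CD4 side in Cd40lg, Cd4, Gata3 and Runx3, while its Cd8b level was close to that of a CD8 label.

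Against Mature CD4-1 the differences ran one way. Of 3443 counted genes, 86 (2.50%) were at least 2-fold higher in Mature CD4-2 and 0 (0%) at least 2-fold lower, and no counted gene was more than 1.96-fold lower. At 1.5-fold the counts were 369 and 27. The median log2 ratio of all counted genes was 0.15, and without mitochondrial, ribosomal protein and haemoglobin genes it was 0.04, so log2 ratios within about that range say little.

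Among counted genes with a gene symbol and a UMI in at least 20% of the Mature CD4-2 cells, the 15 with the largest ratios were led by genes of the DP stage. Slc7a11, a cystine transporter, was at 265 CPM against 10.8 CPM, a 24.5-fold ratio (13.5 to 49.5). Rag1 was at 199 CPM against 10.8 CPM, an 18.4-fold ratio (10.1 to 37.4). Thy1, a surface protein that rat thymocytes carry and mature T cells lose, was at 218 CPM against 20.7 CPM, a 10.6-fold ratio (6.78 to 17.4). Dntt, which adds bases at receptor junctions, was at 101 CPM against 14.8 CPM, a 6.86-fold ratio (4.01 to 12.6). All 4 were higher still in DP cells, at 1949 CPM for Slc7a11, 1952 CPM for Rag1, 1824 CPM for Thy1 and 865 CPM for Dntt. Adam12, Plxdc2, Ssx2ip, Akap2, Cd200, Pdzrn4, Cacnb2, Daam1 and Emb, with ratios of 4.82 to 13.5, also had DP as their highest label. Cep112 (7.36-fold) was highest in Immature CD8-1, and Ikzf2 (4.94-fold), a factor of agonist-selected and regulatory T cells, in AgoSel2. Of all 86 genes, 50 (58.1%) had DP as their highest label, against 17.0% of all counted genes. At least 2-fold more in DP than in Mature CD4-1 were 74 of the 86 (86.0%), against 13.7% of all counted genes.

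**Figure D2:**
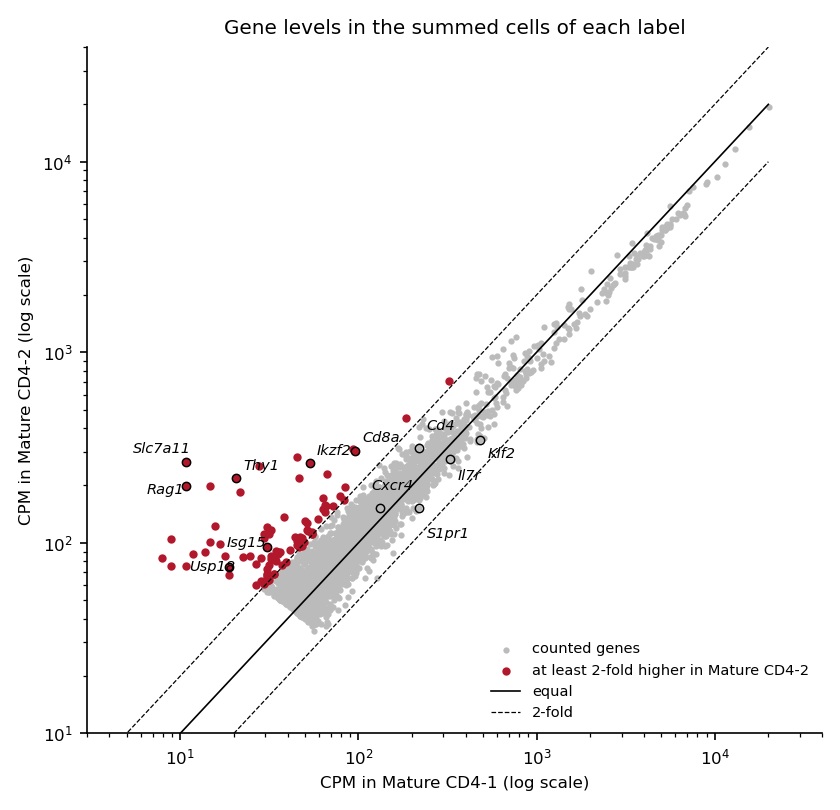
CPM of each of 3443 counted genes in Mature CD4-2 (vertical) against Mature CD4-1 (horizontal), both on log scales, with red points for the 86 genes at least 2-fold higher in Mature CD4-2. The solid line marks equal levels and the dashed lines 2-fold; no point lies beyond the lower dashed line, and Slc7a11 and Rag1 lie furthest above.

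Coreceptor genes followed the same direction. All 3 counted genes of the CD8 lineage were at least 2-fold higher: Cd8b (220.1 against 46.3 CPM, 4.76-fold, 3.48 to 6.63), Cd8a (303 against 95.5 CPM, 3.17-fold, 2.53 to 4.01) and Runx3 (89.3 against 35.4 CPM, 2.52-fold, 1.72 to 3.78). Cd8a stood nearly level with Cd4 (314 CPM) in a label named for CD4. Of the 4 counted genes of the CD4 lineage, none passed 2-fold: Gata3 was at 122.8 against 65.9 CPM, Tox at 1040 against 652 CPM, and Cd40lg at 103 against 155 CPM (1.502-fold lower). All 17 genes of the T cell receptor complex had ratios above 1, with a median log2 ratio of 0.21 where all counted genes had 0.15. Of the 17, 13 lay above that median of all genes, and only Thy1 passed 2-fold. Among T-lineage factors, 2 of 22 passed, Runx3 and Myb (230 against 66.9 CPM, 3.43-fold), and Foxp1 was at 1365 against 1104 CPM. Ccr9 was the 1 gene of 9 in the list of newly selected cells to pass, at 106 against 29.5 CPM (3.59-fold). Tap2, a peptide transporter, was the 1 of 9 class I presentation genes to pass (112 against 31.5 CPM), and DP was its highest label too.

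No gene passed 2-fold on the lower side. The 15 lowest ratios ran from 0.552 to 0.644. Gnl3 (0.562), Ddx18 (0.611) and Ebna1bp2 (0.644) act in making ribosomes, with Exosc5 (0.556) in RNA processing and Trmt6 (0.552) in modifying transfer RNA. Gimap9 (88.5 against 156 CPM), S1pr4 (37.5 against 62.0 CPM), Calhm6 (110 against 174 CPM) and Flot1 (40.7 against 65.9 CPM) were highest of all labels in Mature CD4-1. The others were Timm8a1, Ccnd2, Emc6, Cnih4, Ranbp1 and Pcbd2. Of 20 counted genes of late maturation and exit, 15 had ratios below 1, with a median log2 ratio of -0.22, and only Emb passed 2-fold, upward. Of 82 counted genes of cytoplasmic ribosomal proteins, 81 had ratios below 1, with a median of -0.26, and together they took 26.2% of UMIs against 31.5%. All 13 counted actin and cytoskeleton genes were below 1 (median -0.17), and 6 of 7 GIMAP genes (median -0.31).

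The DP-stage genes were not spread evenly over the 127 cells. With Rag1, Rag2, Ptcra and Dntt added up, a group of 4 genes picked after their values were seen, 83 cells held 0 UMIs, 10 held 1 to 2 and 34 held at least 3. Those 34 cells were 26.8% of the label (19.3 to 35.4%). The share with at least 3 such UMIs was 2.48% in Mature CD4-1 (3 of 121), 3.30% in Mature CD8-1 (3 of 91), 5.83% in Immature CD4-2 (6 of 103) and 8.11% in Treg (3 of 37). In the label of B and myeloid cells it was 12.9% (22 of 170), in cells with a median of 23246 UMIs. Thinned to 2500 UMIs per cell, with no cell left out, Rag1 was seen in 19.7% of Mature CD4-2 and in 0% of Mature CD4-1 cells, which by a count of 3 allows up to 2.48% of cells with a UMI at that thinned depth. Unthinned, the values were 27.6% and 3.31%.

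The 34 cells held the genes of both stages at once. Their median of 10 UMIs of the 4 genes was close to the median of DP cells, 11. The 34 were chosen for at least 3 UMIs of these genes, so a raised median follows in part from the choice. As CPM the 4 genes were at 948 in the 34 and 3185 in DP cells. For Klf2, S1pr1, Il7r and Plac8 together, the 34 had a median of 35 UMIs and the 83 cells without DP-gene UMIs 37. DP cells had a median of 2. As CPM this sum was at 3221 in the 34, 4648 in the 83 and 800 in DP cells. Plac8 made up most of it, with a mean of 33.5 of 41.6 UMIs per cell in the 34. Slc7a11 averaged 9.38 UMIs per cell in the 34, 0.0723 in the 83 and 7.09 in DP cells. Thy1 averaged 7.29, 0.0120 and 6.63 in the same order. The 34 were also deeper, with a median of 12057.5 UMIs against 8442 in the 83, a gap of 3615.5, and DP cells had a median of 3205.5. Of the 34, 32 lay above the median depth of the label. No doublet caller was run, the deposited files name no doublet call used here, and whether these barcodes held 2 cells was not tested.

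**Figure D3:**
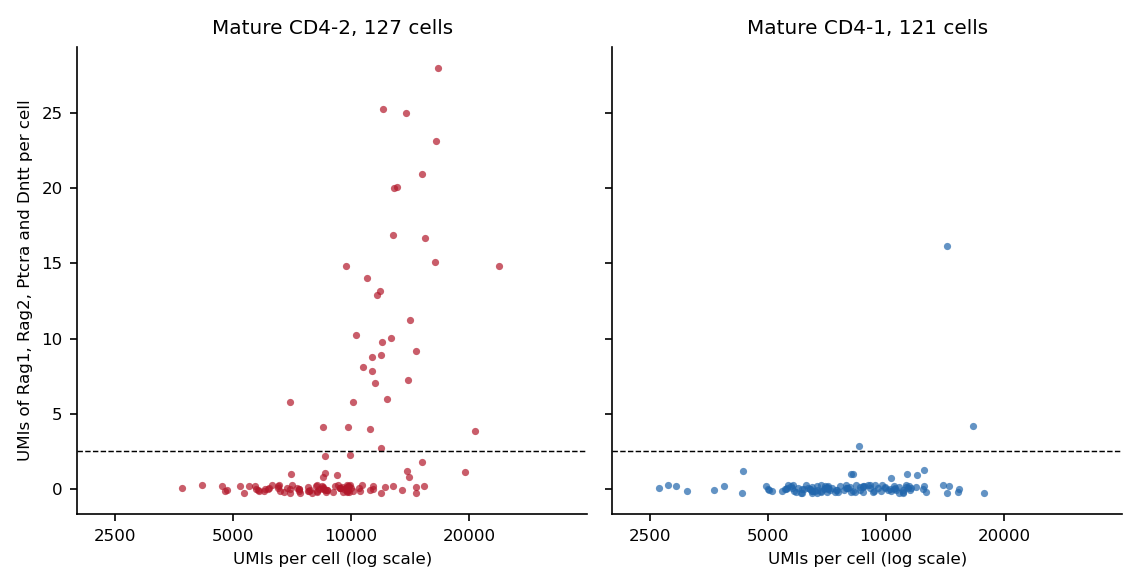
UMIs of Rag1, Rag2, Ptcra and Dntt together (vertical, points jittered slightly) against UMIs per cell (horizontal, log scale) in the 127 Mature CD4-2 and 121 Mature CD4-1 cells, 1 point a cell. Above the dashed line, which parts at least 3 from fewer UMIs, lie 34 and 3 cells, and those of Mature CD4-2 lie to the right, among the deeper cells.

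Coreceptor UMIs split the label further. Of the 127 cells, 51 held Cd4 without Cd8a or Cd8b, 47 held both, 20 held Cd8a or Cd8b without Cd4, and 9 held neither. Mature CD4-1 had 80, 10, 12 and 19 cells in the same order. All 34 cells with at least 3 DP-gene UMIs were among the 47 with both. In the 20 cells with Cd8 alone, Runx3 had a UMI in 75%, Zbtb7b, the factor of the CD4 lineage, in 0 of 20, which allows a share of cells with a UMI of up to 15% by a count of 3, and Cd40lg in 10.0%. The 72 cells of Mature CD8-1 with Cd8 alone gave 91.7%, 0% and 2.78% for these genes. The 12 such cells of Mature CD4-1 gave 58.3%, 0 of 12 and 8.33%, and Runx3 was seen in 75% of the 8 of Immature CD4-2. In the 51 Mature CD4-2 cells with Cd4 alone the values for Runx3, Zbtb7b and Cd40lg were 7.84%, 33.3% and 54.9%. Cd4 had a UMI in 77.2% of all Mature CD4-2 cells at a median of 9553 UMIs, against 18.7% of Mature CD8-1 cells at 10290 UMIs, and Cd8a in 50.4% against 14.9% of Mature CD4-1 cells. These groups are ranges of a count and not cell types, and at a few UMIs per cell a coreceptor can be missed.

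Leaving out cells with DP-gene UMIs lowered the number of genes past 2-fold, and the number of genes that could be counted. Without cells that held at least 3 UMIs of the 4 genes, 93 and 118 cells remained, and 16 of 2673 counted genes (0.599%) were at least 2-fold higher and 0 lower. Of the 86 genes, 34 still had 100 UMIs, and 12 of these were still 2-fold higher. Of the 52 that fell under 100 UMIs, 22 still had a ratio of at least 2, and 11 of the 15 genes with the largest ratios did so at any count. Adam12 was at 43 against 7 UMIs, a ratio of 7.36 (3.28 to 19.4), with 95.3% of its Mature CD4-2 UMIs in 5 cells. Cep112 was at 62 against 10 UMIs, a ratio of 7.43 (3.78 to 16.2), and Plxdc2 at 65 against 16 UMIs in 28 Mature CD4-2 cells, a ratio of 4.87 (2.78 to 9.01). Among counted genes, Ikzf2 led at 334 against 51.2 CPM (6.52-fold, 4.80 to 8.996), followed by Isg15 (4.33-fold), Ly75 (3.28-fold), the chemokine gene Ccl3 (3.17-fold) and Cacnb2 (2.99-fold). Of the 93 cells, 5 held 47.1% of the Ikzf2 UMIs, 61.0% of those of Ccl3 and 56.5% of those of Cacnb2. Without cells holding any UMI of the 4 genes, Cd8a or Cd8b, Ikzf2 fell from 272 to 36 UMIs in Mature CD4-2. The gap in exit genes narrowed at the same time, to ratios of 0.772 (0.616 to 0.963) for S1pr1 and 0.821 (0.711 to 0.948) for Klf2. Cd4 itself came to 207 against 213 CPM. The cells were chosen by these genes, so the loss of Rag1 and Dntt from the count follows from the choice.

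Without any cell that held a UMI of the 4 genes, Cd8a or Cd8b, 57 Mature CD4-2 and 93 Mature CD4-1 cells remained, at like median depths of 8442 and 7810.0 UMIs. Only 4 of 1876 counted genes (0.213%) were at least 2-fold higher and 1 (0.0533%) lower. The 4 were Isg15, Spata13, Vti1a and Resp18, and the lower gene was Fcrla, with 32 UMIs in 2 cells against 130 UMIs in 8 cells. Of the 86 genes, only 6 still had 100 UMIs. Klf2 was at 478 against 493 CPM and S1pr1 at 195 against 219.9 CPM, with the ratios given above. Thy1 was down to 1 and 7 UMIs and Ikzf2 to 36 and 24 UMIs, both under the 100 UMIs of the rule. The Ikzf2 ratio was 2.42 (1.41 to 4.25), with a UMI in 11 cells of each label. Cxcr4 was at 106 against 138 CPM, 0.770 (0.540 to 1.08). The late maturation and exit list had a median log2 ratio of -0.05 over 16 counted genes, where all counted genes had 0.04.

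Genes induced by interferon were higher in Mature CD4-2, also in that narrower comparison, where few of them could be counted. In all cells, 9 of the 24 list members were counted, all 9 had ratios above 1, with a median log2 ratio of 0.55 where all counted genes had 0.15, and 4 passed 2-fold. Usp18, which removes the tag ISG15 and damps interferon signalling, was at 74.96 against 18.7 CPM (4.01-fold, 2.43 to 6.95). Mx2, an antiviral dynamin-like protein, was at 67.8 against 18.7 CPM (3.62-fold, 2.19 to 6.31). Isg15, a ubiquitin-like protein, was at 94.9 against 30.5 CPM (3.11-fold, 2.08 to 4.78), and Rtp4 at 62.2 against 29.5 CPM (2.11-fold, 1.37 to 3.33). Of the others, Ifi44 was at 111 against 75.8 CPM, Mx1 at 137 against 104 CPM and Irf1 at 59.0 against 52.2 CPM. DP cells were at 1.00 CPM for Isg15, 0.264 CPM for Rtp4, 0.529 CPM for Mx1, 7.30 CPM for Usp18 and 12.8 CPM for Mx2, each below its level in Mature CD4-1. In 57 against 93 cells without DP-gene or Cd8 UMIs, Isg15 was at 187 against 30.9 CPM, a ratio of 6.06 (3.83 to 9.94). It was the only one of 4 counted members past 2-fold there, and all 4 had ratios above 1. Other lists also had most members above 1 in those cells, among them 7 of 8 class I presentation genes and 13 of 15 genes of the T cell receptor complex.

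Summed over the 24 genes, the level was 1187 CPM in Mature CD4-2 and 765 CPM in Mature CD4-1, 731 CPM in Mature CD8-1, 636 CPM in Immature CD4-2 and 170.1 CPM in DP cells. It was higher in Treg (1584 CPM) and in intCD4 (2080 CPM). The genes were unequally shared among cells: 50 of the 127 held at least 10 UMIs of the list (39.4%, 30.8 to 48.4%), against 26 of 121 (21.5%, 14.5 to 29.9%), and the 13 cells with most of them held 34.6% of the UMIs. In the narrower comparison the sum was 1606 against 784 CPM, and 28 of 57 cells (49.1%) against 21 of 93 (22.6%) held at least 10 UMIs. The lowest, median and highest cell held 1, 9 and 78 UMIs in Mature CD4-2 and 0, 6 and 28 in Mature CD4-1. Without the 2 highest cells of each label the ratio of the sums was 1.81 (1.61 to 2.03) in place of 2.05 (1.84 to 2.28), and that of Isg15 6.85 (3.86 to 12.96).

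**Figure D4:**
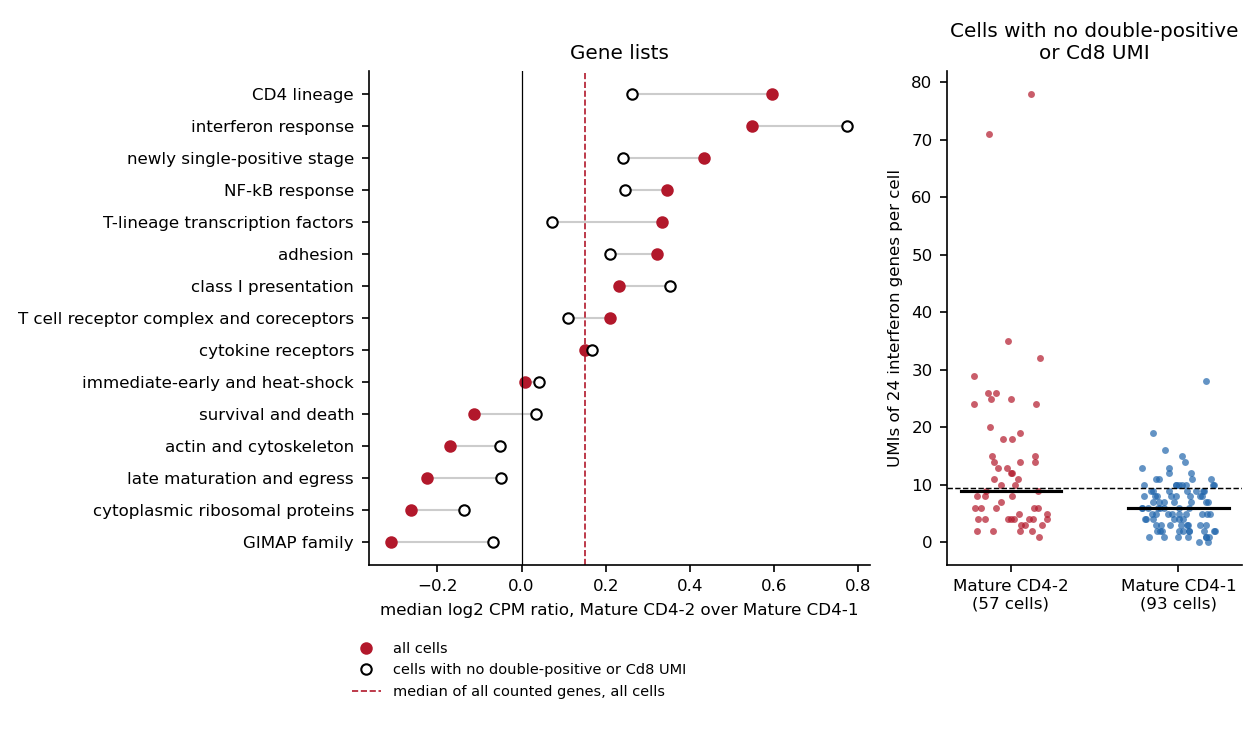
Left, median log2 CPM ratio of Mature CD4-2 over Mature CD4-1 for each gene list with at least 3 counted genes in both sets of cells, in all cells (red) and in cells with no UMI of the 4 double-positive genes, Cd8a or Cd8b (open), with the median of all counted genes dashed; the interferon median is 0.55 over 9 counted genes and 0.77 over 4, and that of late maturation and egress -0.22 over 20 and -0.05 over 16. Over the genes counted in both sets of cells, the medians are 0.47 and 0.77 for the 4 interferon genes and -0.24 and -0.05 for the 16. Right, UMIs of the 24 interferon genes in each of those 57 and 93 cells, with medians of 9 and 6 (black) and 10 UMIs marked by the dashed line.

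The promoters of interferon genes carry the interferon-stimulated response element, the site of the factors that interferon activates. A search for GAAANNGAAA on both strands of the 250 bases before each start, where matches may overlap, found it in 902 of 27457 rat promoters (3.29%) of the RefSeq table for build GRCr8. Of the 24 list members, 16 are in that table and 10 of them held a match. The 4 windows shown were chosen after the matches were seen, to show Ifi44, the counted gene with a match, beside genes of the same kind with fewer UMIs. Each line reads 5′ to 3′ on the strand of the gene and ends before the start of transcription, with the matches in capitals. A match on the other strand reads TTTCNNTTTC.
Ifi44 (chr2:243303841-243303891, minus strand): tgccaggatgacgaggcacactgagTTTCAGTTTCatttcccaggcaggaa
Isg20 (chr1:142239942-142240001, plus strand): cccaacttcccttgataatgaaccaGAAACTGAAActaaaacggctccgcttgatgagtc
Oas1a (chr12:41330400-41330465, plus strand): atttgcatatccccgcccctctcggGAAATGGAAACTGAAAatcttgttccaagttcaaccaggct
Bst2 (chr16:18255058-18255123, minus strand): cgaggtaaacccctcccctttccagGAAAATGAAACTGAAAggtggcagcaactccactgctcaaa
The match begins 26 bases before the start in Ifi44 and 92 in Isg20, and Oas1a and Bst2 each hold 2 overlapping matches. Ifi44 held 139 UMIs in Mature CD4-2 and 77 in Mature CD4-1. Isg20 held 55 and 26, Bst2 43 and 21, and Oas1a 13 and 0. These counts are too low for a ratio by the rule of 100 UMIs. Isg15, Mx2, Usp18 and Rtp4 are not in the table used here.

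Markers of other cell types were measured in both labels, and their part in the differences was not tested. All 7 epithelial and all 5 erythroid markers were at 0 UMIs in both labels. Of 7 mesenchymal markers, 6 were at 0 in Mature CD4-2 and 7 in Mature CD4-1. The 9 markers of gamma-delta and cytotoxic cells summed to 40.7 and 40.4 CPM, the 11 of myeloid and dendritic cells to 55.8 and 43.3 CPM, and the 5 of endothelium to 71.8 and 64.0 CPM. Cd79a, a B cell receptor chain, was at 163 and 145 CPM, and 4 of 7 B cell markers were at 0. Of 10 genes of regulatory T cells 2 were counted, Ikzf2 and Tnfrsf18 (67.8 against 59.1 CPM).

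In the section, each bin of 20 chip units, nominally a square of 10 µm, carried up to 3 labels from the authors' deconvolution (RCTD, robust cell type decomposition), which is an estimate for a region that can hold several cells. Mature CD4-2 came first in 9483 bins out of 592087 with a label, at a median of 465 UMIs, and the call was marked confident in 28.1% of them. Mature CD4-1 was first in 2788 bins, 20.3% of them confident. There were thus 3.40 bins of the first label per bin of the second, where the cell library had 1.05 cells per cell, and 1.66 in the table of segmented cells (9424 against 5669). The denominators differ, so no direction is read from these ratios. Of the bins where Mature CD4-2 was first, 26.3% were given that label alone, and the commonest second label was mTEC-prol (24.1%), then mTEC2 (16.3%) and mTEC1 (11.6%), all medullary epithelium.

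Most bins with the label lay in the medulla. The authors' regions mECA and mEFA, which the sources used here do not spell out and are taken as the medullary areas with and without epithelium that the series title names, held 61.1% of them (60.1 to 62.1%). The share was 66.6% for Mature CD4-1, 59.4% for Mature CD8-1, 49.7% for Mature CD8-2 and 10.1% for all labelled bins. Bins given 1 label alone had 33.9% in the medulla, confident ones 71.2% and bins at or above the median depth 72.6%. Outside the medulla, 41.7% of the bins with the label lay within 50 µm of it. By region, Mature CD4-2 took 0.463% of capsular, 0.762% of cortical, 9.14% of mECA and 10.97% of mEFA bins. Mature CD4-1 took 2.58% of mECA and 4.24% of mEFA bins.

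Both CD4 labels were denser in mEFA than in mECA, and Mature CD4-1 more so than Mature CD4-2. The CD8 labels were denser there too. Mature CD8-1 took 3.04% of mECA and 4.34% of mEFA bins, and Mature CD8-2 9.52% and 10.4%. These are shares of all labelled bins, so they also depend on how many bins have an epithelial first label. There were 3.54 Mature CD4-2 bins per Mature CD4-1 bin in mECA (3673 and 1037 bins) and 2.59 in mEFA (2123 and 820 bins). The ratio of these ratios was 0.731 (0.657 to 0.813). The ratio was lower in mEFA in 15 of the 20 connected pieces of medulla that held 100 or more bins of each region. Some pieces held few Mature CD4-1 bins, down to 1 in each region, so their single ratios say little. Neighbouring bins share tissue and RNA, so the interval is too narrow for the section as a whole. The ratio was 0.779 and 0.687 in the parts of the section below and above the median x coordinate, and 0.615 with confident labels. In bins given 1 label alone it was 0.802 (0.597 to 1.08), an interval that includes equality.

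Distance from the edge of the medulla changed the mix. Medullary Mature CD4-2 bins lay a median of 56.6 µm from the nearest bin outside, Mature CD4-1 bins 63.2 µm and all medullary bins 44.7 µm. In segmented cells the order of the CD4 labels turned, with 28.02 µm for Mature CD4-2, 27.56 µm for Mature CD4-1 and 22.98 µm for all. The share of medullary bins with the label was 6.84% within 20 µm of the edge, 9.14% at 20 to 50 µm, 11.1% at 50 to 100 µm, 13.2% at 100 to 150 µm and 11.5% at 150 to 200 µm. Per Mature CD4-1 bin there were 3.87 (3.38 to 4.44) Mature CD4-2 bins within 20 µm and 2.22 (1.79 to 2.74) at 150 to 200 µm. The slope differed by region. In mEFA the ratio went from 4.99 within 20 µm to 1.68 at 150 to 200 µm, and in mECA from 3.42 to 2.93. Within 20 µm of the edge the ratio was thus higher in mEFA than in mECA, the reverse of the whole, on 76 and 185 Mature CD4-1 bins.

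**Figure D5:**
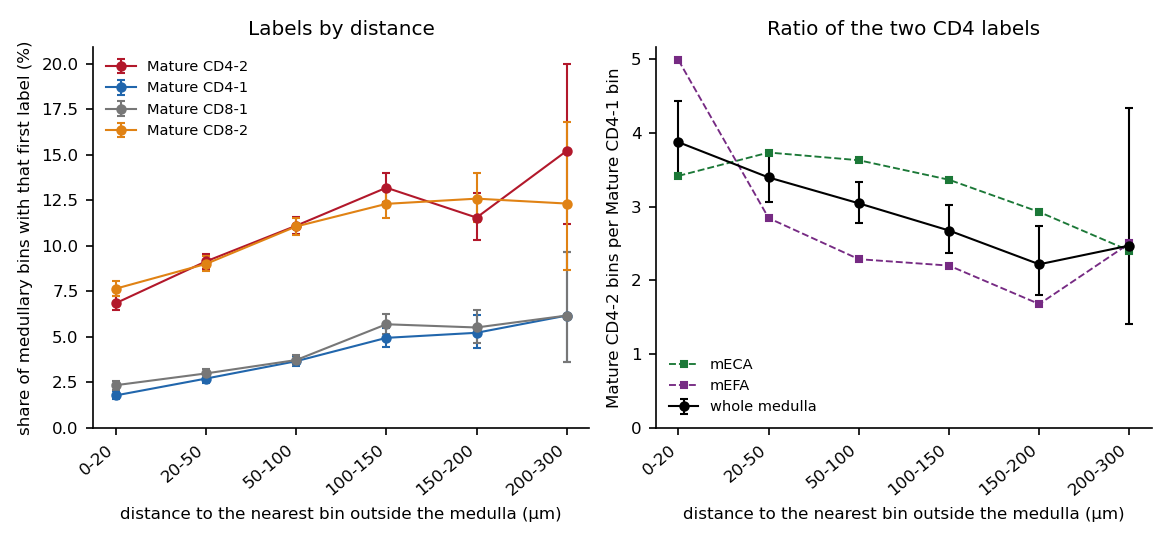
Left, share of medullary bins whose first label is each of 4 mature labels (vertical, percent) by distance to the nearest bin outside the medulla (horizontal, µm), with 95% intervals for counting error. Right, Mature CD4-2 bins per Mature CD4-1 bin over the same distances, from 3.87 within 20 µm to 2.22 at 150 to 200 µm in the whole medulla (black, with intervals), in mECA (green) and in mEFA (purple); the last step rests on 276 bins.

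Within the medulla, bins within 30 µm of a Mature CD4-2 bin were compared with all medullary bins. They carried Mature CD4-2 1.28 times and Mature CD4-1 1.20 times as often, Mature CD8-1 1.20 times and Mature CD8-2 1.04 times. TMC4, a mesenchymal label, was 1.41 times as frequent (167 bins), mural cells (vSMC_PC, 92 bins) 1.24 times and venous endothelium (180 bins) 1.13 times. mTEC1 stood at 1.02, mTEC2 at 0.786, mTEC-prol at 0.794, DP at 0.622 and DN at 0.626. Near Mature CD4-1 bins the same ratios were 1.28 for TMC4, 1.26 for mural cells, 1.39 for venous endothelium and 0.686 for mTEC2. These lay on the same side of 1 as near Mature CD4-2. For mTEC1 the sides differed, with 0.786 near Mature CD4-1 and 1.02 near Mature CD4-2 (2139 bins). The label's share also varied with depth: it took 8.30% of medullary bins with 101 to 383 UMIs, 11.7% of those with 384 to 429 UMIs and 5.78% of those with 623 to 1075 UMIs. Mature CD4-1 took 2.38%, 3.06% and 1.98% in the same ranges.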

How the data were processed

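A library of thymocytes, a library of stromal cells and a thymus section were deposited, 1 sample each. The deposited counts are whole numbers of UMIs. Per the file headers they come from Cell Ranger 8.0.0, and the submitters' processing notes also name Seurat 5.3.0 and the build mRatBN7.2. The annotation used for counting is not given in the sources used here. The deposited percent of mitochondrial UMIs per cell, the RCTD weights (fractions for up to 3 labels of a bin) and each deposited score of a bin were computed by the authors, and the scores were not used. The label is the projected label, or the initial cluster where none was given.

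UMIs were summed over the cells of a label and divided by the label's total. CPM ratios have exact conditional intervals, shares have Clopper-Pearson intervals, which are exact, and a ratio of ratios has a log-normal one. Each is a 95% interval and covers counting error alone. Counted genes hold at least 100 UMIs over both labels. The genes named are the 3 proposed markers, the 15 highest and 15 lowest ratios with a UMI in at least 20% of cells of the higher label (genes known only by an identifier left out), the 10 with the largest lead over the next label of at least 20 cells, and members of 28 gene lists, those past 2-fold plus up to 4 by UMIs. Other names were chosen after their values were seen. Members and lists were chosen with earlier results of these data known. Ratios and calls were tested on simulated data. The stromal counts were not analysed here beyond their barcodes. One chip unit was taken as 0.5 µm. The tools were matplotlib 3.10.9, pandas 2.3.3, SciPy 1.17.1, NumPy 2.4.6 and Python 3.11.15, with random draws seeded at 7. No doublet caller was run. Some genes are not reported here.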

Additional observations from a re-analysis of the deposited data

How the results depend on the processing

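No paired analysis was possible because there was 1 sample per group. The share of Mature CD4-2 among cells was not recomputed from the initial clusters, since none carries that name, and stayed within its interval under both other filters. Of 86 genes higher and 0 lower, cells thinned to 1000 UMIs gave 2 and 0, with 250 genes left to count. Minimums of 50 and 20 UMIs gave 181 and 10, and 462 and 69, and 1.5-fold gave 369 and 27. The mean of the cells' CPM and totals without mitochondrial, ribosomal protein and haemoglobin genes each gave 1 lower gene, and a median ratio set to 1 gave 2, with 75, 68 and 63 higher. Alternatives chosen after seeing the data were the filters on double-positive UMIs, which gave 16 (at least 3), 11 (any) and 4 higher and 1 lower (any, or Cd8), by their own construction, the barcodes shared with stroma (87 and 0) and confident labels. Single ratios were followed for 182 counted genes, those of the named sets and of the lists other than ribosomal proteins. Among those past 2-fold, some ratios fell below 1 without any double-positive UMI and then also without Cd8. They were Adam12 (0 and 0, as it was not seen in Mature CD4-2), Thy1 (0.185 and 0.231), Ssx2ip (0.834 and 0.808), Pdzrn4 (0.927 and 0.692) and Emb (0.757 and 0.485). In the second alone, Runx3 (0.359) and Myb (0.524) fell below 1. Each rested on at most 49 UMIs over both labels, under the 100 UMIs of the rule. Of all 86 genes, 71 kept a ratio above 1 at any UMI count in the first setting and 63 in the second. Among the genes followed, no ratio past 2-fold crossed 1 under the other alternatives. Without cells of at least 3 double-positive UMIs, 84 of all 86 genes kept a ratio above 1 at any UMI count. The medullary share of 61.1% was 33.9% in bins with 1 label, 72.6% in bins at or above the median depth, 51.5% in segmented cells, 62.4% and 59.7% on either side of the median x, 62.8% for any label and 71.2% for confident ones. The distance of 56.6 µm was 70.7 µm with 1 label and 28.02 µm in segmented cells, where Mature CD4-1 was at 27.56 µm. The ratio of ratios of 0.731 was 0.615 when confident and 0.802 (0.597 to 1.08) with 1 label. The neighbour ratio of 1.20 was 1.54 with 1 label and 1.34 when confident. The causes of these shifts were not tested. With 127 and 121 cells, genes under 100 UMIs could not be compared.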

Other observations

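Most other gene lists had no member past 2-fold between Mature CD4-2 and Mature CD4-1. The median log2 ratio of all counted genes was 0.15, so counts of ratios above 1 are given with counts above that median. Of 6 counted genes of the NF-kB response, 5 had ratios above 1, 4 lay above the median and none passed 2-fold. Ltb, which encodes lymphotoxin beta, was at 295 against 209.6 CPM, and Nfkb1 at 303 against 194 CPM (ratio 1.56, 1.31 to 1.87). Of the response to receptor signals 3 genes were counted, Cd69 (136 against 100.4 CPM), Cd5 (144 against 138 CPM) and Nfatc1 (48.6 against 39.4 CPM). Of 12 counted cytokine receptors, 8 had ratios above 1, 6 lay above the median of all counted genes and none passed 2-fold. Among the 12 were Il2rg, the shared gamma chain (280 against 204 CPM), and Tgfbr2 (278 against 236 CPM). The survival genes Bcl2 (388 against 375 CPM) and Mcl1 (326 against 327 CPM) had intervals that include equality.

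Of 9 counted class I presentation genes, 6 had ratios above 1, and 6 lay above the median of all counted genes. B2m, the light chain of class I, was at 3336 against 3514 CPM, and the proteasome subunits Psmb9 and Psmb8 were at 209 against 187 CPM and 209.7 against 169 CPM. Of 13 counted adhesion genes 10 were above 1 and 8 above the median of all counted genes, with Itga4 at 250 against 182 CPM and Cd2 at 450 against 448 CPM. The 12 counted immediate-early and heat-shock genes split evenly, 6 above and 6 below 1. The 2 counted cell cycle genes, Hmgb2 (213 against 199 CPM) and Stmn1 (216 against 166 CPM), did not pass 2-fold. Of 7 counted chemokine and lipid receptors, 5 had ratios below 1, among them Gpr183 (41.5 against 58.1 CPM).

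The thymocyte library held 28 barcodes with no annotation and 27563 UMIs in all. They had 31 to 190 genes each, below the lowest annotated cell (205 genes), and held 2 UMIs of Cd4, 1 of Rag1 and 0 of S1pr1.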
